A study of Homo sapiens with 36 samples.

Results

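When a ribosome stalls on a messenger, PELO and HBS1L can split it, and the large subunit left behind may still hold an unfinished peptide joined to its tRNA. Nascent chain ribosome quality control is the pathway that clears such subunits. NEMF binds the subunit and recruits the ubiquitin ligase LTN1, TCF25 helps LTN1 to build the ubiquitin chain, ANKZF1 cuts the peptide from its tRNA, and the ATPase VCP with its cofactor pair UFD1 and NPLOC4 pulls the marked peptide out. NEMF can also add an alanine tail to the peptide, and KLHDC10 and RCHY1 are ubiquitin ligases that recognise such tails. These 9 genes were chosen by name for their roles, with earlier results of these data known. All 9 were among the 61544 genes of the count table, and all 9 passed the filter on low counts that left 20767 genes for testing.

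The cells were MIA PaCa-2, a line from a human pancreatic carcinoma, carrying Cas9 under a doxycycline (dox) switch and 1 of 3 guides, and their polyA RNA was sequenced. The PELO line carried a guide against PELO, the HBS1L line a guide against HBS1L, and the control line the non-targeting guide NTC. Each line was grown in serum free of tetracycline, with 2 µg/mL dox or with no dox, and taken at 48 h or 96 h, which gave 12 groups of 3 libraries. The series record asks what losing PELO or HBS1L does in lines whose SKI complex, a helper of the RNA exosome, is destabilised, and the control line shares whatever background MIA PaCa-2 has. Whether a line is a single clone or a pool is not given in the sources used here. Library totals ran from 45.4 to 107 M counts, and all but 1 library, replicate 2 of the PELO line with dox at 96 h, held at most 66.7 M. The labels do not say whether the 3 libraries of a group came from separate cultures, and p-values cover the spread among those libraries alone. The 48 h and 96 h libraries carry separate runs of library numbers, and an effect of time cannot be told apart from one of that split.

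In 7 groups 1 library stood apart from the other two, by a chi-square per gene between pairs of libraries (near 1 where counting error alone separates them). These were replicate 1 of the PELO line with dox and replicate 3 of the PELO line with no dox at both times, replicate 3 of the control line with dox and with no dox at 96 h, and replicate 3 of the HBS1L line with dox at 96 h. Pairs that held such a library gave 8.64 to 19.1, against 1.81 to 4.33 for the remaining pair of the same groups, and the mark of over 3 times that pair was set with the values in view. Pairs in the 5 groups with no such library gave 1.98 to 8.41, so the highest of these lay just under 8.64. Each of these libraries was left out in turn, and calls on the members beyond the control line that changed with it are given beside the results.

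The sequences upstream of LTN1 and TCF25 are shown because both messengers were lower with the PELO guide at 96 h and their RefSeq starts (GRCh38.p14) have a stretch free of annotated exons before them. Capitals mark CCAAT on either strand (ATTGG on the strand shown) and TGACGT, the core letters of the cyclic AMP response element. The LTN1 stretch is chr21:28992957-28993127 on the minus strand, and the TCF25 stretch is chr16:89873342-89873569 on the plus strand, both written 5′ to 3′.
LTN1: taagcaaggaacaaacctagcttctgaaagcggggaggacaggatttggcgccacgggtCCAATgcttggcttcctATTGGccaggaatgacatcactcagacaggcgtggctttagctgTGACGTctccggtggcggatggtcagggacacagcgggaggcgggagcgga
TCF25: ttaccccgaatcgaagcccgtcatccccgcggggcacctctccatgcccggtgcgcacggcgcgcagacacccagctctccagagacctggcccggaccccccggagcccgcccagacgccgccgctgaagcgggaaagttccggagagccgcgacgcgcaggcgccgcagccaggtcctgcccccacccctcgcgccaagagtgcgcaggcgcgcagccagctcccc
The LTN1 stretch of 171 bases held 2 CCAAT matches and 1 TGACGT match, none of which overlapped, at a GC content of 58.5%. Among stretches of 171 bases taken from 35116 RefSeq promoters, 22.2% held CCAAT on either strand, 4.69% held at least 2 of them, and 3.58% held TGACGT. The TCF25 stretch of 228 bases held neither, at a GC content of 74.6% against a median of 57.5% over promoters at that length, of which 30.5% held CCAAT and 6.31% TGACGT. TGATGNAA, the letters of the composite element of ATF4 and C/EBP proteins, was in neither stretch, against 2.04% and 2.89% of promoters at those lengths. CGGAAG, the core letters of ETS factor sites, was also in neither, against 9.24% and 14.0% of promoters at those lengths. The full LTN1 window of 250 bases did hold 2 CGGAAG matches, outside the stretch shown, in the part next to the start that annotated exons cover. The promoters compared were not cut for exons. Of these motifs TGATGNAA alone was chosen without sight of the sequences. NPLOC4 also had exon-free stretches, at RefSeq starts within the gene, and NEMF, VCP and RCHY1 had entries but no such stretch. UFD1, ANKZF1 and KLHDC10 were not matched.

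HBS1L messenger showed the effect of its guide at both times. In its own guide line, PELO messenger was lower with dox at 48 h and overlapped at 96 h. In the HBS1L line, HBS1L averaged 36.2 ± 0.899 CPM with dox and 105.2 ± 1.75 CPM without at 48 h, and 33.8 ± 0.332 CPM with dox and 110.7 ± 1.98 CPM without at 96 h (SD, n = 3; CPM are counts scaled to library size). The control line without dox averaged 123.3 ± 1.3 CPM at 48 h and 142.8 ± 2.06 CPM at 96 h. HBS1L was thus already lower in the HBS1L line without dox, with no overlap at either time, and the cause was not tested. In the PELO line, PELO averaged 20.7 ± 0.404 CPM with dox and 25.2 ± 1.33 CPM without at 48 h. At 96 h it averaged 28.3 ± 1.46 CPM with dox and 29.1 ± 1.99 CPM without. The 48 h libraries did not overlap, at 20.2 to 20.9 CPM with dox against 23.7 to 26.0 CPM without. The control line also had less PELO with dox at 48 h, at 24.0 to 25.7 CPM against 26.5 to 28.3 CPM without. The small fall at 48 h and the overlap at 96 h mean that this message does not check the labels of the PELO line libraries. The line expressed KRT8, KRT18 and VIM at group means of at least 729.4 CPM, while EPCAM and CDH1 had at most 3 counts in any library, as did DCN, LUM and PTPRC; PECAM1 had at most 2. COL1A2, CD14 and CDH5, listed as markers of fibroblasts, leukocytes and endothelium, had group means of 28.4 to 253.3, 0.511 to 8.67 and 0.9 to 38.3 CPM. At 96 h all 3 epithelial, both fibroblast, the 1 leukocyte and both endothelial markers that passed the filter, of 5, 4, 4 and 3 listed, fell beyond the control line with the PELO guide, as did VIM at -0.26. At 48 h 1 of 3 epithelial markers, both fibroblast markers (median log2 change -1.26), the leukocyte marker (-1.93) and both endothelial markers (-1.56) fell with that guide, and VIM, at -0.14, was not called. Summed over each list in the PELO line at 96 h, the epithelial markers held 1415.4 to 1690.6 CPM with dox against 3242.9 to 3464.0 CPM without, and the fibroblast markers 27.4 to 30.1 against 210.1 to 225.4 CPM. With dox against without in the same libraries, the leukocyte markers held 0.464 to 0.698 against 3.59 to 4.92 CPM and the endothelial markers 0.996 to 1.61 against 17.3 to 19.1 CPM. With the HBS1L guide at 96 h, 2 of 3 epithelial and 1 of 2 endothelial markers fell beyond the control line and no fibroblast or leukocyte marker did; at 48 h 0 markers were called with that guide. Their part in the results on the 9 members was not tested. All libraries are labelled as the same cultured line, so these marker lists do not count cells of other types. In bulk RNA, less of a message per cell and fewer cells of the line that express it cannot be told apart.

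The 9 messengers spanned a wide range of levels and a narrow range of change. Per kilobase of exon, VCP was highest in each of the 12 groups, with a mean of 63.4 CPM per kilobase over the 36 libraries, and NPLOC4 was next in each group, at 14.9 CPM per kilobase. NEMF followed at 11.3, TCF25 at 9.91, KLHDC10 at 9.0, LTN1 at 8.3, UFD1 at 8.25 and ANKZF1 at 6.42 CPM per kilobase. RCHY1 was lowest or next to lowest in every group, at 3.12 CPM per kilobase. Between its highest and lowest group means, RCHY1 differed by 1.93-fold, ANKZF1 by 1.9-fold, UFD1 by 1.75-fold, TCF25 by 1.65-fold and VCP by 1.62-fold. KLHDC10, LTN1, NEMF and NPLOC4 spanned 1.42-, 1.4-, 1.33- and 1.25-fold. For every member but RCHY1 the highest and lowest groups came from different times. The PELO line with dox at 96 h held the highest group mean of RCHY1 and UFD1 and the lowest of ANKZF1 and TCF25.

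**Figure D1:**
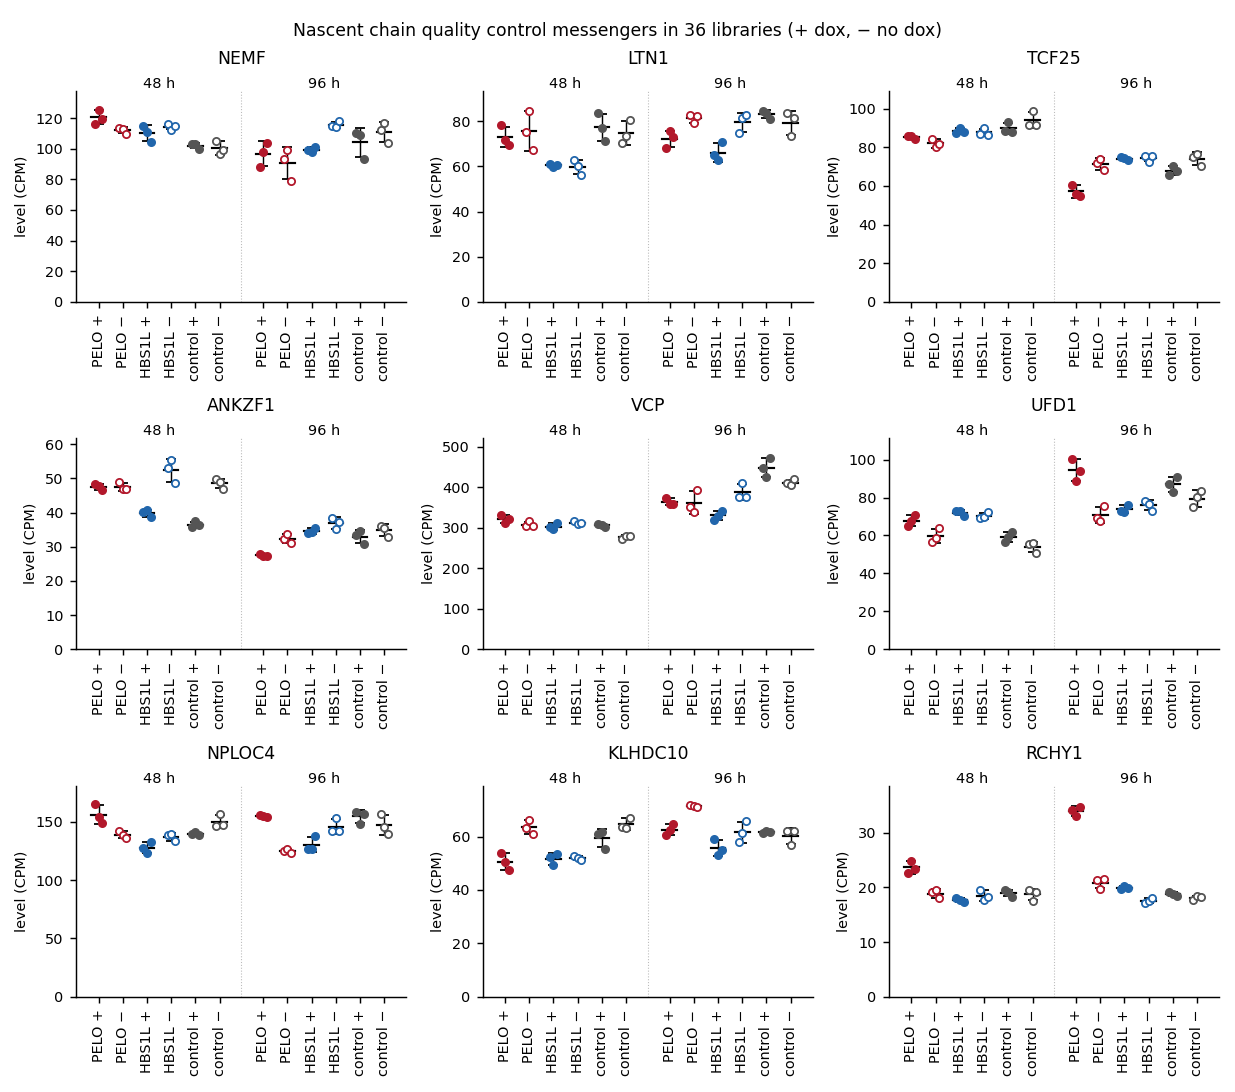
Levels of the 9 messengers in CPM (y axis) in 36 libraries, by line, dox and time (x axis); filled points are libraries with dox, open points libraries with no dox, and bars the group mean ± SD of 3 libraries. RCHY1 in the PELO line given dox for 96 h, at 33.1 to 34.8 CPM, lies above every other RCHY1 library.

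Beyond the control line, 3 members rose and 3 fell with the PELO guide at 96 h, and 3 fell with the HBS1L guide. A response beyond the control line is the log2 ratio of dox to no dox in a line minus the same log2 ratio in the control line, and a member was called where the adjusted p of edgeR's quasi-likelihood test was under 0.05. With the PELO guide, 3 members rose and 1 fell at 48 h, 44.4% of the 9 against 47.9% of all genes tested (22.9% up, 24.9% down). At 96 h 3 rose and 3 fell, 66.7% against 54.8% of all genes (28.7% up, 26% down). With the HBS1L guide, 0 of 9 were called at 48 h, against 3.85% of all genes, where 1 member had an unadjusted p under 0.05 and 1 was called by DESeq2. At 96 h 3 members fell and 0 rose with that guide, 33.3% against 10.7% of all genes (5.41% up, 5.32% down). Within a line, dox against no dox was called for 4 members in the PELO line at 48 h (48% of all genes) and 7 at 96 h (66.8%), and for 1 member in the HBS1L line at 48 h (21.5%) and 6 at 96 h (19.9%). Beyond the control line, the PELO counts lay near the share of all genes, and the HBS1L count at 96 h lay above it, on 3 genes. The counts of the guides were not compared by a test, and the members were chosen with earlier results of these data known. Without any 1 of the libraries that stood apart, the members called were 4 for the PELO guide at 48 h, 6 or 7 for it at 96 h, and 3 for the HBS1L guide at 96 h. The median log2 change of the members was 0.077 and -0.11 with the PELO guide at 48 h and 96 h, against -0.040 and 0.019 over all genes, and -0.030 and -0.18 with the HBS1L guide, against -0.0092 and 0.012. The median size of the log2 change over all genes with the PELO guide was 0.375 at 48 h, which ANKZF1 alone of the members exceeded, and 0.463 at 96 h, which RCHY1 alone exceeded. With the HBS1L guide it was 0.14 at 48 h, which VCP alone exceeded, and 0.171 at 96 h, which 5 of 9 members exceeded: VCP, LTN1, NPLOC4, KLHDC10 and UFD1.

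**Figure D2:**
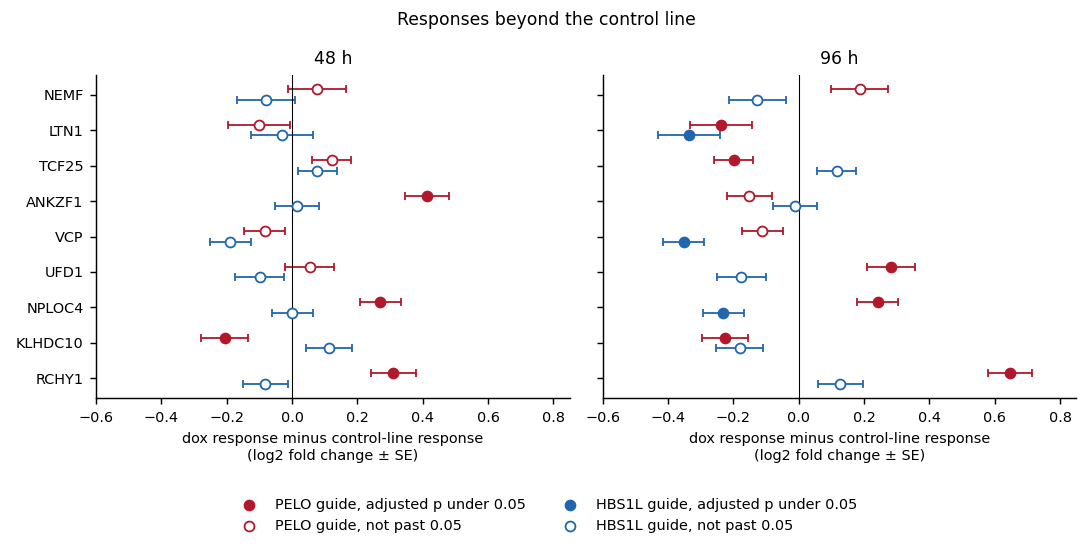
Response of each member beyond the control line (log2 fold change ± SE, x axis) at 48 h and 96 h for the PELO guide (red) and the HBS1L guide (blue); filled points have an adjusted p under 0.05. RCHY1 with the PELO guide stands at 0.31 at 48 h and 0.65 at 96 h, and LTN1 lies below 0 with either guide at 96 h.

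NEMF, the factor that holds the large subunit and builds alanine tails, did not pass the test beyond the control line with either guide at either time, though the PELO value at 96 h lay near the threshold. The gene lies on chromosome 14 (49782083 to 49853203, minus strand, GENCODE 29 on GRCh38), and 31.9% of its exonic length overlaps KLHDC2 on the opposite strand, a gene of at most 37.3 CPM. In the PELO line at 96 h NEMF had 87.8, 98.0 and 103.9 CPM with dox, against 79.1, 93.0 and 99.3 CPM without. The groups overlapped, and the log2 change beyond the control line was 0.19 ± 0.09 (SE; edgeR adjusted p = 0.0728). It was called with no filter on low counts (0.19, adjusted p = 0.0358), without replicate 2 of the PELO line with no dox (0.23, adjusted p = 0.0262) and without replicate 1 of the PELO line with dox (0.23, adjusted p = 0.0272). In the HBS1L line at 96 h it had 98.1, 99.2 and 100.9 CPM with dox, against 114.1, 115.0 and 117.9 CPM without. There the dox libraries lay below all libraries without dox, a log2 change of -0.22 ± 0.06 within the line (edgeR adjusted p = 0.0106). Since NEMF also varied in the control line, with 93.2, 109.2 and 110.0 CPM with dox against 103.6, 112.5 and 116.8 CPM without, the change beyond the control line was -0.13 ± 0.09 (edgeR adjusted p = 0.41). The PELO response exceeded the HBS1L response by 0.31 ± 0.09 on the log2 scale at 96 h (edgeR adjusted p = 0.00267). The 48 h difference was 0.16 ± 0.09 (edgeR adjusted p = 0.154; 0.17 and 0.0244 in a fit of those lines at 48 h alone). KLHDC2 changed beyond the control line by -0.27 ± 0.08 with the PELO guide and 0.17 ± 0.08 with the HBS1L guide at 96 h (edgeR adjusted p = 0.00348 and 0.17). Whether the counting used strand is not given in the sources used here.

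LTN1, the ligase that marks the trapped peptide, fell at 96 h with both guides. LTN1 occupies chromosome 21 (28928144 to 28992956, minus strand), and no other annotated exon overlaps its own. In the PELO line at 96 h LTN1 had 68.4, 72.9 and 75.6 CPM with dox, against 79.2, 82.3 and 82.8 CPM without. The HBS1L line at 96 h had 62.7, 65.1 and 70.7 CPM with dox, against 74.9, 81.4 and 82.7 CPM without. In both lines every dox library was below every library without dox, while the control line, with 81.1, 83.9 and 84.8 CPM with dox and 73.4, 81.3 and 83.6 CPM without, overlapped. Beyond the control line the log2 change was -0.24 ± 0.09 with the PELO guide (0.848-fold; edgeR adjusted p = 0.031) and -0.34 ± 0.09 with the HBS1L guide (0.792-fold; edgeR adjusted p = 0.0176). The difference between the guides was 0.10 ± 0.09 (edgeR adjusted p = 0.404). Both calls were lost without replicate 2 of the control line with no dox, at -0.18 (adjusted p = 0.114) and -0.28 (adjusted p = 0.0746). Without replicate 1 of the PELO line with dox the first was -0.22 (adjusted p = 0.0528), and without replicate 2 of the HBS1L line with dox the second was -0.30 (adjusted p = 0.0598). At 48 h the changes beyond the control line were -0.10 ± 0.09 with the PELO guide and -0.03 ± 0.09 with the HBS1L guide (edgeR adjusted p = 0.408 and 0.918). LTN1 was already low in the HBS1L line without dox at 48 h, at 56.3, 60.2 and 62.7 CPM, against 70.4, 73.3 and 80.8 CPM in the control line without dox, a log2 difference of -0.33 ± 0.07 (edgeR adjusted p = 0.000202).

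TCF25, which steers the ubiquitin chain that LTN1 builds and is the human counterpart of yeast Rqc1, fell with the PELO guide at 96 h and not with the HBS1L guide. It lies on chromosome 16 (89873570 to 89913627, plus strand) and shares 6.87% of its exonic length with MC1R and 2.06% with AC092143.3, both on the same strand and at most 16.4 and 11.8 CPM. MC1R fell within the PELO line at 96 h by 1.04 ± 0.21 on the log2 scale (edgeR adjusted p = 6.97e-05). The control line also had less of it with dox, at 4.04 ± 0.91 CPM against 6.22 ± 0.638 CPM without (SD, n = 3). Beyond the control line the MC1R change was -0.42 ± 0.28 (edgeR adjusted p = 0.216), and its part in the TCF25 counts was not tested. In the PELO line at 96 h TCF25 had 54.7, 56.1 and 60.7 CPM with dox, against 68.3, 71.9 and 74.1 CPM without. The control line had 65.7, 67.8 and 70.4 CPM with dox and 70.2, 75.2 and 76.6 CPM without, so the PELO dox libraries lay below all 9 others, and the control groups overlapped slightly. The log2 change was -0.32 ± 0.04 within the PELO line (0.8-fold; edgeR adjusted p = 2.25e-08) and -0.20 ± 0.06 beyond the control line (0.871-fold; edgeR adjusted p = 0.00491). The second value was -0.19 (adjusted p = 0.0502) with no filter on low counts. Values in the HBS1L line overlapped, with 73.3, 74.3 and 74.8 CPM with dox and 72.6, 75.3 and 75.8 CPM without, and the change beyond the control line was 0.12 ± 0.06 (edgeR adjusted p = 0.238). The difference between the guides was -0.31 ± 0.06 (edgeR adjusted p = 2.58e-05). At 48 h TCF25 in the PELO line changed by 0.12 ± 0.06 beyond the control line (edgeR adjusted p = 0.0932; called by DESeq2 at 0.14, adjusted p = 0.0442). The 96 h change minus the 48 h change was -0.32 ± 0.08 (edgeR adjusted p = 0.00531), or -0.28 (adjusted p = 0.0967) with no filter.

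ANKZF1, the human counterpart of yeast Vms1 that cuts the peptide from its tRNA, had the largest change of the 9 members between the times in its PELO response beyond the control line. ANKZF1 occupies chromosome 2 (219229757 to 219236669, plus strand) and shares 1.05% of its exonic length with GLB1L. The PELO line at 48 h had 46.5, 47.7 and 48.3 CPM with dox, against 46.8, 46.8 and 48.8 CPM without. The HBS1L line had 38.7, 40.1 and 40.7 CPM with dox, against 48.7, 52.9 and 55.4 CPM without, and the control line 35.7, 36.3 and 37.4 CPM with dox, against 46.9, 48.9 and 49.7 CPM without. ANKZF1 thus fell with dox in the HBS1L line, by 0.39 ± 0.05 on the log2 scale, and in the control line, by 0.41 ± 0.05 (edgeR adjusted p = 4.33e-08 and 1.08e-08). The PELO groups overlapped at a change of 0.00 ± 0.05 (edgeR adjusted p = 0.98). Its rise of 0.41 ± 0.07 beyond the control line with the PELO guide at 48 h (1.33-fold; edgeR adjusted p = 3.38e-06) sets a level PELO line against a control line that fell. At 96 h the PELO line had 27.3, 27.4 and 28.0 CPM with dox, against 31.0, 32.3 and 33.7 CPM without. No library overlapped, the change within the line was -0.23 ± 0.05 (edgeR adjusted p = 7.45e-05), and beyond the control line it was -0.15 ± 0.07 (edgeR adjusted p = 0.06). With limma on the authors' log2 table that value was -0.19 (adjusted p = 0.0107). It was also called, at -0.18 to -0.22 (adjusted p = 0.0429 to 0.00712), when any 1 of 5 libraries was left out. The 5 were replicate 1 of the PELO line with dox, replicates 1 and 3 of the PELO line with no dox, replicate 3 of the control line with dox and replicate 1 of the control line with no dox. The PELO response beyond the control line at 96 h minus that at 48 h was -0.56 ± 0.10 (edgeR adjusted p = 3.8e-05). Against the HBS1L response, the PELO response differed by 0.40 ± 0.07 at 48 h (edgeR adjusted p = 7.13e-06) and by -0.14 ± 0.07 at 96 h (edgeR adjusted p = 0.0813). The 96 h difference was called, at -0.17 to -0.19 (adjusted p = 0.0491 to 0.0222), without any 1 of 6 libraries. Those were replicate 1 of the PELO line with dox, replicate 3 of the PELO line with no dox, replicates 1 and 2 of the HBS1L line with dox and replicates 1 and 3 of the HBS1L line with no dox.

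VCP, the ATPase that supplies the pulling force, fell with the HBS1L guide at 96 h. VCP occupies chromosome 9 (35056064 to 35073249, minus strand), free of overlap with other annotated exons. In the HBS1L line at 96 h VCP had 319.4, 329.8 and 342.6 CPM with dox, against 376.0, 376.4 and 410.2 CPM without. The control line at 96 h had 426.7, 447.0 and 472.5 CPM with dox and 405.6, 410.4 and 419.7 CPM without. The dox libraries thus lay below the others in the HBS1L line and above them in the control line. The log2 change was -0.23 ± 0.04 within the HBS1L line (edgeR adjusted p = 0.000226) and -0.35 ± 0.06 beyond the control line (0.783-fold; edgeR adjusted p = 0.000179). In the PELO line at 96 h, VCP had 359.6, 359.9 and 374.6 CPM with dox, against 339.6, 351.7 and 393.7 CPM without. Those groups overlapped, at -0.11 ± 0.06 beyond the control line (edgeR adjusted p = 0.133). The value was -0.17 (adjusted p = 0.0272) without replicate 2 of the control line with dox, and -0.18 (adjusted p = 0.015) without replicate 2 of the PELO line with no dox. The PELO response minus the HBS1L response was 0.24 ± 0.06 at 96 h (edgeR adjusted p = 0.00122). At 48 h the HBS1L change beyond the control line was -0.19 ± 0.06 (edgeR adjusted p = 0.0838; called by DESeq2, and at -0.18 with adjusted p = 0.019 in a fit of those lines at 48 h alone). The PELO change at 48 h was -0.08 ± 0.06 (edgeR adjusted p = 0.287).

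UFD1, which with NPLOC4 hands ubiquitin-marked substrates to VCP, rose in the PELO line. The gene lies on chromosome 22 (19449910 to 19479215, minus strand), and antisense transcripts of at most 1.18 CPM cover 8.44% of its exonic length. At 96 h the PELO line had 88.6, 94.2 and 100.5 CPM with dox, against 67.5, 69.4 and 75.6 CPM without. The control line had 83.1, 87.1 and 90.9 CPM with dox, against 74.8, 80.1 and 83.5 CPM without. The PELO dox libraries lay above all PELO libraries without dox, and the log2 change was 0.41 ± 0.05 within the line (1.33-fold; edgeR adjusted p = 1.02e-08) and 0.28 ± 0.07 beyond the control line (1.22-fold; edgeR adjusted p = 0.00145). The HBS1L line had 72.3, 72.9 and 76.1 CPM with dox and 73.1, 76.7 and 78.4 CPM without, which overlapped, at -0.18 ± 0.07 beyond the control line (edgeR adjusted p = 0.133). The guides differed by 0.46 ± 0.07 (edgeR adjusted p = 2e-06). The lines also differed without dox: the untreated PELO line was below the untreated control line by 0.17 ± 0.05 on the log2 scale (edgeR adjusted p = 0.0205). The PELO line with dox against the control line with dox gave 0.12 (adjusted p = 0.0505). The untreated difference was not called in a fit of those lines at 96 h alone (adjusted p = 0.0634). Nor was it, at -0.11 to -0.16 (adjusted p = 0.181 to 0.0631), without replicate 1 or 2 of the PELO line or replicate 2 or 3 of the control line. At 48 h UFD1 rose by 0.18 ± 0.05 within the PELO line (edgeR adjusted p = 0.00429; 0.14 and 0.0536 without replicate 1 of the PELO line with no dox), and by 0.05 ± 0.08 beyond the control line (edgeR adjusted p = 0.602).

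NPLOC4, the partner of UFD1, rose beyond the control line with the PELO guide at both times and fell with the HBS1L guide at 96 h. The gene lies on chromosome 17 (81556887 to 81648465, minus strand), and 0.376% of its exonic length overlaps TSPAN10. At 48 h the PELO line had 148.7, 154.2 and 165.2 CPM with dox against 135.7, 139.0 and 142.3 CPM without, and the control line 138.3, 139.1 and 141.1 CPM with dox against 146.2, 146.9 and 156.2 CPM without. At 96 h the PELO line had 154.3, 155.2 and 155.7 CPM with dox against 123.5, 124.7 and 126.5 CPM without, and the control line 148.4, 156.8 and 158.4 CPM with dox against 139.3, 145.8 and 156.7 CPM without. The PELO dox libraries lay above their untreated partners at both times, and the log2 change beyond the control line was 0.27 ± 0.06 at 48 h (1.21-fold; edgeR adjusted p = 0.000507) and 0.24 ± 0.06 at 96 h (1.18-fold; edgeR adjusted p = 0.00125). With dox at 96 h the PELO and control lines differed by 0.01 on the log2 scale (adjusted p = 0.928). The untreated PELO line was below the untreated control line by 0.24 ± 0.04 (edgeR adjusted p = 0.000141). NPLOC4 in the HBS1L line at 96 h had 126.5, 127.0 and 137.7 CPM with dox, against 141.9, 142.2 and 153.4 CPM without. These did not overlap, and the change beyond the control line was -0.23 ± 0.06 (0.852-fold; edgeR adjusted p = 0.0141). That call was lost without replicate 2 of the HBS1L line with no dox (-0.19, adjusted p = 0.064) and with no filter on low counts (-0.22, adjusted p = 0.0526). The guides differed by 0.27 ± 0.06 at 48 h and 0.47 ± 0.06 at 96 h (edgeR adjusted p = 0.000628 and 4.52e-08).

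KLHDC10, a substrate receptor of a CUL2 ubiquitin ligase that reads alanine tails, fell in the PELO line. KLHDC10 occupies chromosome 7 (130070510 to 130135720, plus strand), free of overlap with other annotated exons. At 48 h the PELO line had 47.4, 50.4 and 53.9 CPM with dox, against 61.0, 63.3 and 66.2 CPM without. The control line had 55.4, 60.9 and 61.8 CPM with dox, against 63.3, 63.7 and 67.1 CPM without, a log2 change of -0.12 ± 0.05 (edgeR adjusted p = 0.0562; -0.14 and 0.0339 with those libraries alone, -0.15 and 0.0471 without replicate 2 with dox). Dox libraries lay below the others in both lines, and the log2 change was -0.33 ± 0.05 within the PELO line (edgeR adjusted p = 1.21e-06) and -0.21 ± 0.07 beyond the control line (0.867-fold; edgeR adjusted p = 0.0166). That call was lost without replicate 3 of the PELO line with dox (-0.17, adjusted p = 0.0599) and in a fit of those lines at 48 h alone (-0.19, adjusted p = 0.0692). At 96 h the PELO line had 60.7, 62.3 and 64.7 CPM with dox, against 71.2, 71.3 and 71.9 CPM without, and the control line 61.4, 61.8 and 62.1 CPM with dox, against 56.8, 61.9 and 62.1 CPM without. The change beyond the control line was -0.23 ± 0.07 (0.855-fold; edgeR adjusted p = 0.00677). The high group here was the untreated PELO line, above the untreated control line by 0.25 ± 0.05 (edgeR adjusted p = 0.000402), and with dox the lines differed by 0.02 (adjusted p = 0.759). KLHDC10 in the HBS1L line changed beyond the control line by 0.11 ± 0.07 at 48 h and -0.18 ± 0.07 at 96 h (edgeR adjusted p = 0.48 and 0.102). The second was -0.23 (adjusted p = 0.0441) without replicate 1 of the HBS1L line with no dox. The guides differed by -0.32 ± 0.07 at 48 h (edgeR adjusted p = 0.000395) and by -0.05 ± 0.07 at 96 h (edgeR adjusted p = 0.619).

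RCHY1, a RING ubiquitin ligase that reads the same tails, changed most of the 9 members beyond the control line with the PELO guide at 96 h. The gene lies on chromosome 4 (75479037 to 75514764, minus strand), and 8.33% of its exonic length overlaps THAP6 on the opposite strand, a gene of at most 16.6 CPM. At 48 h the PELO line had 22.7, 23.4 and 24.9 CPM with dox against 18.0, 19.2 and 19.5 CPM without, and the control line 18.3, 19.1 and 19.5 CPM with dox against 17.6, 19.2 and 19.5 CPM without. At 96 h the PELO line had 33.1, 34.1 and 34.8 CPM with dox against 19.8, 21.3 and 21.5 CPM without, and the control line 18.4, 18.8 and 19.1 CPM with dox against 17.7, 18.2 and 18.4 CPM without. At each time all PELO dox libraries lay above all libraries of the other groups. Within the PELO line the log2 change was 0.33 ± 0.05 at 48 h (1.25-fold) and 0.70 ± 0.05 at 96 h (1.63-fold; edgeR adjusted p = 5.79e-07 and 6.66e-16). Beyond the control line it was 0.31 ± 0.07 at 48 h (1.24-fold) and 0.65 ± 0.07 at 96 h (1.57-fold; edgeR adjusted p = 0.000286 and 2.02e-10). The 96 h value minus the 48 h value was 0.34 ± 0.10 (edgeR adjusted p = 0.00985), or 0.26 (adjusted p = 0.105) in a fit of those 2 lines alone. In the HBS1L line at 96 h RCHY1 had 19.7, 19.9 and 20.3 CPM with dox, against 17.2, 17.6 and 18.0 CPM without. These groups did not overlap and gave 0.18 ± 0.05 within the line (1.13-fold; edgeR adjusted p = 0.00684), and 0.13 ± 0.07 beyond the control line (edgeR adjusted p = 0.266). The PELO response exceeded the HBS1L response by 0.39 ± 0.07 at 48 h and 0.52 ± 0.07 at 96 h (edgeR adjusted p = 1.29e-05 and 2.62e-08). THAP6 changed beyond the control line by 0.09 ± 0.10 with the PELO guide at 48 h and 0.24 ± 0.10 at 96 h (edgeR adjusted p = 0.534 and 0.0449), and its part in the RCHY1 counts was not tested.

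Ratios between partners within a library show the uneven change inside the pathway. VCP over UFD1, in CPM per kilobase, was 6.21 ± 0.271 in the PELO line with dox at 96 h and 8.2 ± 0.147 without (SD, n = 3). The HBS1L line had 7.2 ± 0.147 with dox and 8.19 ± 0.442 without, and the control line 8.28 ± 0.057 with dox and 8.34 ± 0.411 without. At 96 h the PELO and HBS1L groups with dox lay below their partners without overlap, and the control groups overlapped. At 48 h the groups with and without dox overlapped in each line, in the PELO line at 7.31 to 8.15 with dox and 7.63 to 8.68 without. The HBS1L line at 48 h had 6.77 ± 0.302 with dox and 7.13 ± 0.198 without, against 8.26 ± 0.495 in the control line without dox. RCHY1 over KLHDC10, the pair that reads alanine tails, was 0.474 ± 0.0419 in the PELO line with dox at 48 h and 0.3 ± 0.00456 without, and 0.548 ± 0.0169 with dox and 0.295 ± 0.0127 without at 96 h. This ratio also lay higher with dox, without overlap, in the HBS1L line at 96 h, at 0.337 to 0.385 with dox against 0.276 to 0.299 without, and in the control line at 48 h, at 0.311 to 0.333 against 0.281 to 0.308. It overlapped in the HBS1L line at 48 h and in the control line at 96 h. UFD1 over NPLOC4, the members of 1 heterodimer, ranged over the 12 group means between 0.396 in the control line with no dox at 48 h and 0.667 in the PELO line with dox at 96 h. It was 0.667 ± 0.0408 in the PELO line with dox against 0.622 ± 0.0444 without at 96 h.

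**Figure D3:**
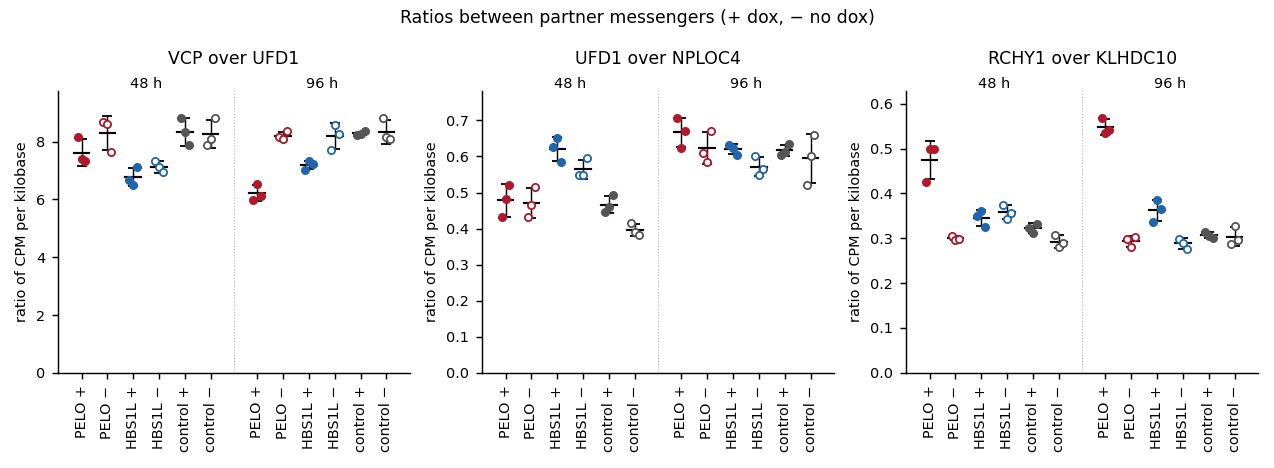
Ratios of CPM per kilobase (y axis) between partner messengers in each library, by line, dox and time (x axis); filled points are libraries with dox, open points libraries with no dox, and bars the group mean ± SD of 3 libraries. VCP over UFD1 is 5.99 to 6.52 in the PELO line with dox at 96 h, below every other library at 96 h.

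Set directly against each other, the responses to the PELO and HBS1L guides differed for 4 of 9 members at 48 h, against 43.2% of all genes, and for 6 of 9 at 96 h, against 55.5%. At 48 h ANKZF1, NPLOC4 and RCHY1 were higher and KLHDC10 lower in the PELO response. At 96 h NEMF, VCP, UFD1, NPLOC4 and RCHY1 were higher and TCF25 lower in the PELO response. For LTN1 the difference was -0.07 ± 0.10 at 48 h and 0.10 ± 0.09 at 96 h (edgeR adjusted p = 0.591 and 0.404), which does not show that the guides act alike on it. The change of the PELO response beyond the control line between the times was called for 3 members, TCF25, ANKZF1 and RCHY1, against 20.5% of all genes. The change of the HBS1L response between the times was called for 0 of 9, against 3.07% of all genes, with 4 members at an unadjusted p under 0.05 and 0 called by DESeq2.

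Members also differed with dox in the control line and between the lines without dox. Dox switches on Cas9 in the control line too, so the parts of dox and Cas9 cannot be told apart there. HBS1L messenger was itself lower in the HBS1L line without dox. Guide action before dox and differences between the lines therefore cannot be told apart. In the control line with dox against no dox, 2 of 9 members were called at 48 h, against 35% of all genes: ANKZF1 fell, and VCP rose by 0.15 ± 0.04 on the log2 scale (edgeR adjusted p = 0.00891). At 96 h 0 of 9 were called in that line, against 7.52% of all genes, with 3 members at an unadjusted p under 0.05 and 2 called by DESeq2. Without dox, the PELO line differed from the control line in 2 members at 48 h, against 11.1% of all genes, and in 6 at 96 h, against 21.8%. At 96 h NEMF was lower there by 0.29 ± 0.06 and VCP by 0.19 ± 0.04, and RCHY1 was higher by 0.21 ± 0.05 (edgeR adjusted p = 0.00061, 0.00182 and 0.00161), beside UFD1, NPLOC4 and KLHDC10 above. Without dox, the HBS1L line differed from the control line in 6 members at 48 h, against 37.9% of all genes. UFD1 was the largest of these, at 69.3, 69.6 and 72.3 CPM in the HBS1L line against 50.9, 55.4 and 55.8 CPM in the control line, a difference of 0.38 ± 0.05 (1.3-fold; edgeR adjusted p = 6.96e-07). KLHDC10 was lower by 0.31 ± 0.05 (edgeR adjusted p = 6.39e-06). At 96 h 0 of 9 differed between those lines without dox, against 0.135% of all genes, with 0 members at an unadjusted p under 0.05 and 0 called by DESeq2.

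Lists of genes around the pathway were counted in the same way at 96 h, where 54.8% of all genes were called with the PELO guide (28.7% up, 26% down) and 10.7% with the HBS1L guide (5.41% up, 5.32% down). These lists too were chosen with earlier results of these data known, so their shares are descriptions and carry no test. For each list and guide at most 2 genes are named, those with the smallest adjusted p under 0.05, whichever way they changed. They do not stand for the rest of their list. Of 9 genes of ribosome rescue and splitting, 6 rose and 2 fell beyond the control line with the PELO guide, 88.9% of the list, at a median log2 change of 0.48 against 0.019 over all genes. GTPBP2, a rescue GTPase that binds PELO, averaged 107.0 ± 1.17 CPM with dox and 38.4 ± 2.96 CPM without in the PELO line at 96 h, a log2 change of 1.63 ± 0.08 beyond the control line (edgeR adjusted p = 2.44e-18). HBS1L, the partner of PELO, averaged 221.0 ± 4.41 CPM with dox and 149.2 ± 3.87 CPM without in that line, a change of 0.51 ± 0.04 (edgeR adjusted p = 2.86e-12). With the HBS1L guide 2 of these 9 rose and 2 fell (44.4%), the falls including HBS1L itself at -1.77 ± 0.05, and GTPBP2 rose by 0.49 ± 0.08 (edgeR adjusted p = 3.18e-26 and 0.000142). Of 16 collision sensors and ligases, 5 rose and 4 fell with the PELO guide at a median of 0.082, and this share of 56.2% was near that of all genes. ZNF598, the ligase that marks collided ribosomes, averaged 154.8 ± 0.541 CPM with dox and 67.8 ± 2.0 CPM without, a change of 1.19 ± 0.06. RNF25, a ligase that acts on stalled ribosomes, averaged 50.2 ± 0.823 CPM with dox and 17.0 ± 0.875 CPM without, a change of 1.63 ± 0.09 (edgeR adjusted p = 2.24e-19 and 1.27e-17). Of the 16, 2 rose and 2 fell with the HBS1L guide (25%), among them EDF1, a sensor of collided ribosomes, at 0.34 ± 0.06, and MAP3K20, the kinase that signals from them, at -0.33 ± 0.06 (edgeR adjusted p = 0.000537 and 0.000409).

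Among 10 parts of the CUL2 ligase and other receptors for C-terminal ends, the family around KLHDC10, 4 rose and 4 fell with the PELO guide at 96 h (80%), at a median of 0.075. KLHDC3, a CUL2 receptor related to KLHDC10, averaged 82.7 ± 7.82 CPM with dox and 169.9 ± 12.8 CPM without in the PELO line, a log2 change of -1.09 ± 0.07 beyond the control line (edgeR adjusted p = 2.5e-15). FEM1C, another CUL2 receptor, averaged 58.4 ± 1.04 CPM with dox and 30.2 ± 0.686 CPM without, a change of 0.80 ± 0.07 (edgeR adjusted p = 8.52e-12). With the HBS1L guide 0 of these 10 rose and 1 fell (10%, near the share of all genes), CUL2 at -0.21 ± 0.05 (edgeR adjusted p = 0.00985).

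Among the other cofactors of VCP, 26 of 27 passed the filter, and with the PELO guide at 96 h 14 rose and 5 fell (73.1%) at a median of 0.29. ZFAND2A, a stress-induced protein that links VCP and the proteasome, averaged 38.7 ± 2.81 CPM with dox and 6.64 ± 0.128 CPM without in the PELO line, a log2 change of 2.64 ± 0.10 beyond the control line (edgeR adjusted p = 3.73e-22). SELENOS, which recruits VCP to the endoplasmic reticulum, averaged 54.5 ± 1.39 CPM with dox and 17.8 ± 0.58 CPM without, a change of 1.52 ± 0.08 (edgeR adjusted p = 5.29e-18). Of the 26, 3 rose and 4 fell with the HBS1L guide (26.9%), among them ZFAND2A at 0.55 ± 0.10 and the deubiquitinase VCPIP1 at -0.46 ± 0.09 (edgeR adjusted p = 0.000424 and 0.000341). Of the 5 genes that release or repair the tRNA after the peptide is cut, 3 rose and 1 fell with the PELO guide (80%) at a median of 0.41. The peptidyl-tRNA hydrolase PTRH2 stood at 0.99 ± 0.07 and the tRNA repair nuclease ELAC1 at 0.62 ± 0.10 (edgeR adjusted p = 2.13e-15 and 9.84e-07). With the HBS1L guide 0 of these 5 rose and 1 fell (20%), ANGEL2, which removes cyclic phosphates from tRNA ends, at -0.20 ± 0.06 (edgeR adjusted p = 0.0361). Exons of other genes cover 10.7% of ZNF598, 11.2% of RNF25, 8.77% of KLHDC3, 8.57% of PTRH2 and 8.51% of ELAC1, which leaves their counts less certain.

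**Figure D4:**
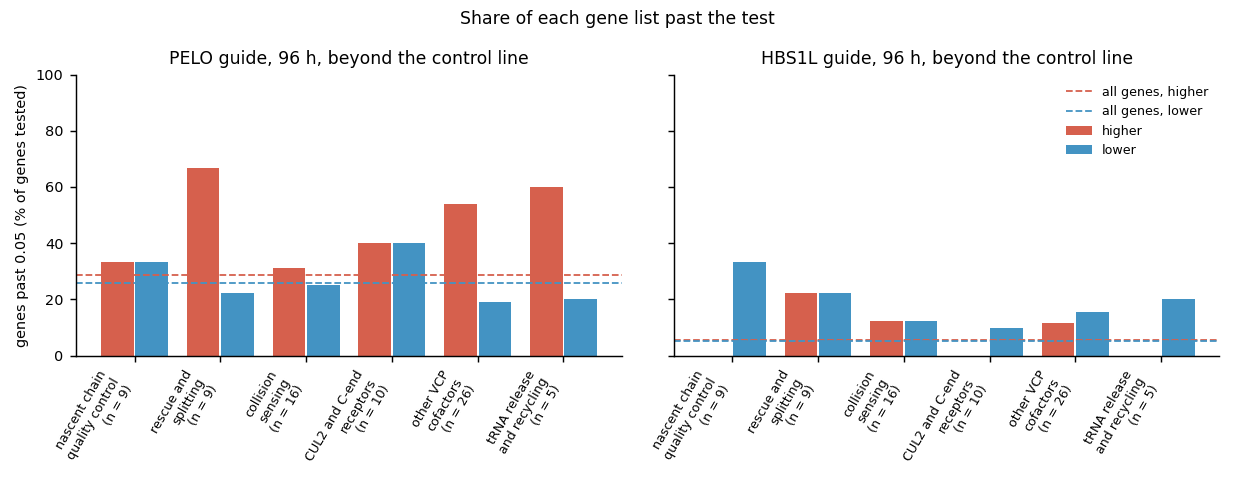
Share of the genes tested in each list (y axis, percent) that were higher (red bars) or lower (blue bars) beyond the control line at an adjusted p under 0.05 at 96 h, for the PELO guide (left) and the HBS1L guide (right); dashed lines give the same shares over all genes, 28.7% higher and 26% lower with the PELO guide and 5.41% and 5.32% with the HBS1L guide. Nascent chain quality control has 33.3% higher and 33.3% lower with the PELO guide, and 0 higher and 33.3% lower with the HBS1L guide.

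Likeness to other genes was measured for the 5 members that spanned at least 1.5-fold, as the root mean square distance between centred log2 group means over the 12 groups, among 14350 genes. RCHY1 was nearest to LIMS1 at 0.0561 and TRIP4 at 0.0574, against its own spread of 0.254. UFD1 was nearest to ENSG00000243960 at 0.0488 and EXOSC3 at 0.0503, against 0.221. TCF25 was nearest to RALGDS at 0.0507 and FHIP2B at 0.0508, and VCP to NSDHL at 0.0485 and RIC8B at 0.0647, against a spread of 0.198 for either. ANKZF1 had the loosest neighbours, RELL2 at 0.0917 and ULK1 at 0.101, against 0.273. For TCF25, ANKZF1, VCP and UFD1 the highest and lowest groups came from different times, so time and the split in library numbers enter these distances. The points share libraries, so the distances describe patterns over the 12 groups and carry no test.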

How the data were processed

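RNA was measured in 36 libraries. The tools named, per the submitters' processing notes, are featureCounts, Subread, DRAGEN, limma and edgeR, with the build GRCh38.p13. Their versions, order and options, the strand setting and the annotation were not given in the sources used here. As deposited by the authors, the values are estimated counts for 61544 genes, 45.6% of those above 0 not whole, and log2 CPM values for 17138 genes, used only as an alternative. Groups follow the sample titles.

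Counts were rounded, filtered with filterByExpr (minimum count 10, minimum total 15), scaled by TMM and fitted over all 36 libraries with 1 mean per group by edgeR's robust quasi-likelihood test (edgeR 4.0.16, limma 3.58.1, R 4.3.3), with Benjamini-Hochberg adjustment over 20767 genes and a threshold of 0.05. The SE is the log2 change divided by the square root of F. The steps were tested on simulated counts that had the same dispersion for every gene and no library set apart. That run does not cover the spread from the libraries that stood apart in these data. At least 99.9% of the counts of each library, 45.4 to 107 M, lay in tested genes. CPM use TMM library sizes. Alternatives were DESeq2 1.42.0, its size factors, no filter, a replicate block, each contrast's own libraries, dox libraries set directly against each other, limma on the log2 table, and leaving out each library.

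The text names all members, PELO and HBS1L, the 2 genes of each list with the smallest adjusted p per guide at 96 h, and the 2 nearest genes of members spanning 1.5-fold. Overlapping genes and absent markers were named after their values were seen. Members and lists were chosen with earlier results of these data known. Loci and exonic lengths are from GENCODE 29, matched by gene identifier. Promoters are RefSeq's, cut to 250 bases before a start and to the part free of annotated exons, and searched on both strands; 6 of 9 members matched. All motifs but TGATGNAA were chosen after the sequences were seen.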

Additional observations from a re-analysis of the deposited data

Results flagged for a closer look

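Members whose response differed between the guides, by a test of the difference itself in edgeR, were ANKZF1 (0.40 on the log2 scale, PELO response minus HBS1L response), NPLOC4 (0.27), KLHDC10 (-0.32) and RCHY1 (0.39) at 48 h. At 96 h they were NEMF (0.31), TCF25 (-0.31), VCP (0.24), UFD1 (0.46), NPLOC4 (0.47) and RCHY1 (0.52). The PELO response beyond the control line differed between the times, 96 h minus 48 h, for TCF25 (-0.32), ANKZF1 (-0.56) and RCHY1 (0.34), again by a test of that difference.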

How the results depend on the processing

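Of 882 member results under settings that kept all libraries of the contrast or changed the method, 841 stayed on their side of the threshold (20 of them changed sign while called in neither setting), 11 were no longer called, 26 became called and 4 reversed; of 1620 results with 1 library left out, 1568 stayed (60 with such a change of sign), 25 were no longer called, 27 became called and 0 reversed. The 4 reversals came from setting dox libraries directly against each other, which also carries the lines' starting difference: KLHDC10 at 0.02 with the PELO guide at 96 h, and UFD1 at 0.28, NPLOC4 at -0.13 and KLHDC10 at -0.20 with the HBS1L guide at 48 h. That setting called 4 members and 4791 genes with the HBS1L guide at 48 h and 6 members and 6185 genes at 96 h, against 0 and 799, and 3 and 2228. A fit of the contrast's own libraries called 1 member and 1372 genes with the HBS1L guide beyond the control line at 48 h, 2 members within the HBS1L line at 48 h (against 1), 4 members in the control line at 48 h (against 2), 614 genes in the control line at 96 h (against 1561) and 981 genes for the HBS1L response between the times (against 637). DESeq2 called 1 member with the HBS1L guide at 48 h, 2 members in the control line at 96 h and 46 genes between the untreated HBS1L and control lines at 96 h, against 0, 0 and 28; no filter gave 95 genes there. With 1 library left out, the counts ran from 5 to 8 members for the PELO guide at 96 h, 1 to 3 for the untreated PELO line at 48 h, 0 to 2 members and 481 to 2141 genes for the control line at 96 h, 484 to 823 genes for the HBS1L guide at 48 h, 1391 to 2421 genes and 2 to 4 members at 96 h, 290 to 798 genes for its change between times, and 12 to 42 genes for the untreated HBS1L line at 96 h. The lowest gene counts came without replicate 2 of the control line with no dox (481), replicate 2 of the HBS1L line with no dox at 96 h (1391), replicate 3 of the control line with dox at 48 h (484 and 290) and replicate 3 of the HBS1L line with no dox at 96 h (12). Replicate numbers did not pair the libraries: same-numbered deviations correlated between -0.208 and 0.199, above 0.1 in 6 of 90 pairs. With a replicate block, 7 members and 11327 genes were called for the PELO guide at 96 h, against 6 and 11376 without it. The causes of these shifts were not tested.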
